A study of Mus musculus with 6 samples.

Results

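The genes described here are 8 genes of the 2-cell-like state, Zscan4c, Zscan4d, Zscan4f, Tcstv1, Tcstv3, Zfp352, Sp110 and the double homeobox gene Duxbl1. They were chosen by name, with earlier results of these data known. All array probes whose RefSeq accession belongs to them were taken. This gave 12 probes for 7 of the 8 genes, out of 55600 probes and 20645 genes with a symbol, and no probe was matched to Zscan4d. Transcripts were measured on 6 single-colour Agilent arrays in J1 mouse embryonic stem cells, a line from the inner cell mass of a 129S4/SvJae mouse. The cells were grown on gelatin in serum replacement medium with 1000 U/mL of the cytokine LIF, and were kept for 24 h with the solvent DMSO (3 arrays) or with 3 µM SB431542 (3 arrays). SB431542 inhibits the type I receptors of Nodal, activin and TGF-beta. The line, strain, medium and LIF were the same in both groups. The comparison asks which transcripts respond to blocking these receptors with LIF present. The labels do not say whether the replicates came from separate cultures. The p-values therefore refer to the spread among these arrays alone, and that spread may be technical.

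In mouse embryonic stem cell cultures a small, changing fraction of cells switches on transcripts that are otherwise typical of the embryo at the 2-cell stage. Zscan4 proteins, which carry a SCAN domain and zinc fingers and are known for their part in telomere maintenance, mark this state, and the transcription factor Dux can drive it. Most of these genes lie in clusters of near-identical copies, so a probe may take signal from several copies, and the identity of each measured copy is uncertain. In a bulk sample, fewer cells in the state and less RNA per cell cannot be told apart.

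The upstream sequences of the Zscan4 copies are shown because they make the near-identity of the family visible, and because the measured copies fell together. They are the 250 bases before the annotated start, 5′ to 3′ on the gene's strand, from RefSeq on GRCm38.p6. Zscan4c lies at chr7:11005495-11005744 (plus strand), Zscan4d at chr7:11166149-11166398 (minus strand) and Zscan4f at chr7:11397665-11397914 (plus strand). Capitals mark bases at which Zscan4d or Zscan4f differs from Zscan4c, in each of the sequences concerned.
Zscan4c: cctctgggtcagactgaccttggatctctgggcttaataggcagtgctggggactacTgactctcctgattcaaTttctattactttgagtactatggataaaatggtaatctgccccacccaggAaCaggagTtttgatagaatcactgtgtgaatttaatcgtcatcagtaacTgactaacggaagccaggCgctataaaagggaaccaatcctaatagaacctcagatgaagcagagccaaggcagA
Zscan4d: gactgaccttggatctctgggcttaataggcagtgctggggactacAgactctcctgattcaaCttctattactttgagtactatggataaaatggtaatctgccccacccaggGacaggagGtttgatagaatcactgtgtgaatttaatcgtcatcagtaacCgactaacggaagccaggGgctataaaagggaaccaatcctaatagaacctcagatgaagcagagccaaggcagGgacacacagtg
Zscan4f: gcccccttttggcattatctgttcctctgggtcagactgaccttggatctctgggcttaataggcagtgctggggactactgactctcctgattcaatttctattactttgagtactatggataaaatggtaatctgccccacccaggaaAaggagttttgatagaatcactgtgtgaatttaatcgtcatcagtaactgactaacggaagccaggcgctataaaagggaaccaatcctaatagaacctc
Over the 227 bases that the windows of Zscan4c and Zscan4f share, 1 base differed (99.6% identity). Zscan4c and Zscan4d differed at 7 of 239 shared bases (97.1% identity) and Zscan4d and Zscan4f at 7 of 216 (96.8% identity). The annotated starts of the copies differ, so the windows are shifted against each other.

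All 3 windows held TATAAA, which begins 54 bases before the start in Zscan4c, 65 in Zscan4d and 31 in Zscan4f. Motifs were searched by their letters on both strands, and TATAAA was found in 12.4% of 32851 RefSeq promoter windows of the same length. The 3 windows also held CAGAC, the short element bound by Smad proteins (42.2% of all windows), but the matches found do not all lie at a shared place. It begins 241 bases before the start in Zscan4c and 218 in Zscan4f, in matching sequence, while in Zscan4d it begins at 205 and includes a base, in capitals, that differs from Zscan4c. The Zscan4d window begins inside the stretch that matches the Zscan4c and Zscan4f element. Whether Zscan4d holds CAGAC there as well was therefore not examined. They held AATNCACA as well (3.18% of all windows), as tgtgaatt on the printed strand. With any base allowed at N, this is a loose form of the element bound by the Smad partner Foxh1. Whether Foxh1 accepts the base found at N was not examined. None of these matches overlapped another. The palindrome GTCTAGAC (0.167% of all windows), the T-box element AGGTGTGA (1.12%), TGCACAC, the letters bound by Zscan4 (3.67%), and a form of the Dux site (0.03%) were not found in the 3 windows. The windows of Zfp352 and the 2 windows of Sp110 held none of the 7 motifs searched. A match is a description of letters and not of binding, and the Zscan4 copies are not independent examples.

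Known targets of the inhibited receptors fell. On the log2 scale, Lefty2 changed by -4.85 ± 0.11 (SE, 3 arrays per group) and Smad7 by -4.59 ± 0.05, both feedback genes of Nodal or TGF-beta signalling, and Lefty1, which fell too, was detected on just 2 of 3 SB431542 arrays. All 5 embryonic stem cell markers examined (Pou5f1, Sox2, Nanog, Zfp42 and Esrrb) were well above background on every array, and 0 passed the test. Of 5 markers each, primitive endoderm and trophoblast had 0 and fibroblasts had 1 that passed, namely Col1a2 (-1.05 ± 0.125, adjusted p = 0.00616). The summed level of the fibroblast markers, in units of the array's 75th percentile, was 2.13 to 2.29 with DMSO and 1.73 to 1.93 with SB431542, and Postn and Twist2 were not well above background on any array. Thy1, which changed by -0.07 ± 0.06 and did not pass, made up most of the fibroblast sum, and Col1a2 made up most of its fall. The sum was 0.863 to 0.908 and 0.865 to 0.997 for primitive endoderm, and 1.04 to 1.15 and 0.995 to 1.11 for trophoblast. Of the trophoblast markers, Elf5 and Hand1 were not well above background on any array, and Eomes made up most of the sum. The part of these cell types in the results was not tested.

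Zscan4c, Zscan4f, Tcstv1, Tcstv3 and Duxbl1 were lower with SB431542, while Zfp352 and Sp110 did not pass the test on any probe. Of the 12 probes, 11 were well above background on at least 3 of 6 arrays and were tested. Among these, 7 fell and 0 rose (limma, adjusted p under 0.05, two-sided, over 36184 probes), against 6.49% of all probes tested that fell and 4.31% that rose. Each of the 7 was at least 1.75-fold lower, and 3.1% of all probes were called and at least 1.5-fold lower. The groups did not overlap, with SB431542 lower, for 8 of the 11, against 17.1% of all probes tested, and 17.7% of all probes stood apart with SB431542 higher. The median log2 change of the 11 was -0.87, against 0.02 over all probes. Several of the 7 are probes of Zscan4c alone, and others are for copies that may share signal. The 7 are therefore not a count of independent genes. As the genes were chosen with earlier results of these data known, these shares are a description. The Duxbl1 probe passed the filter through its DMSO arrays alone. Levels below are log2 values relative to the 75th percentile of each array, so that 0 is the 75th percentile, and they are not comparable between probes.

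**Figure D1:**
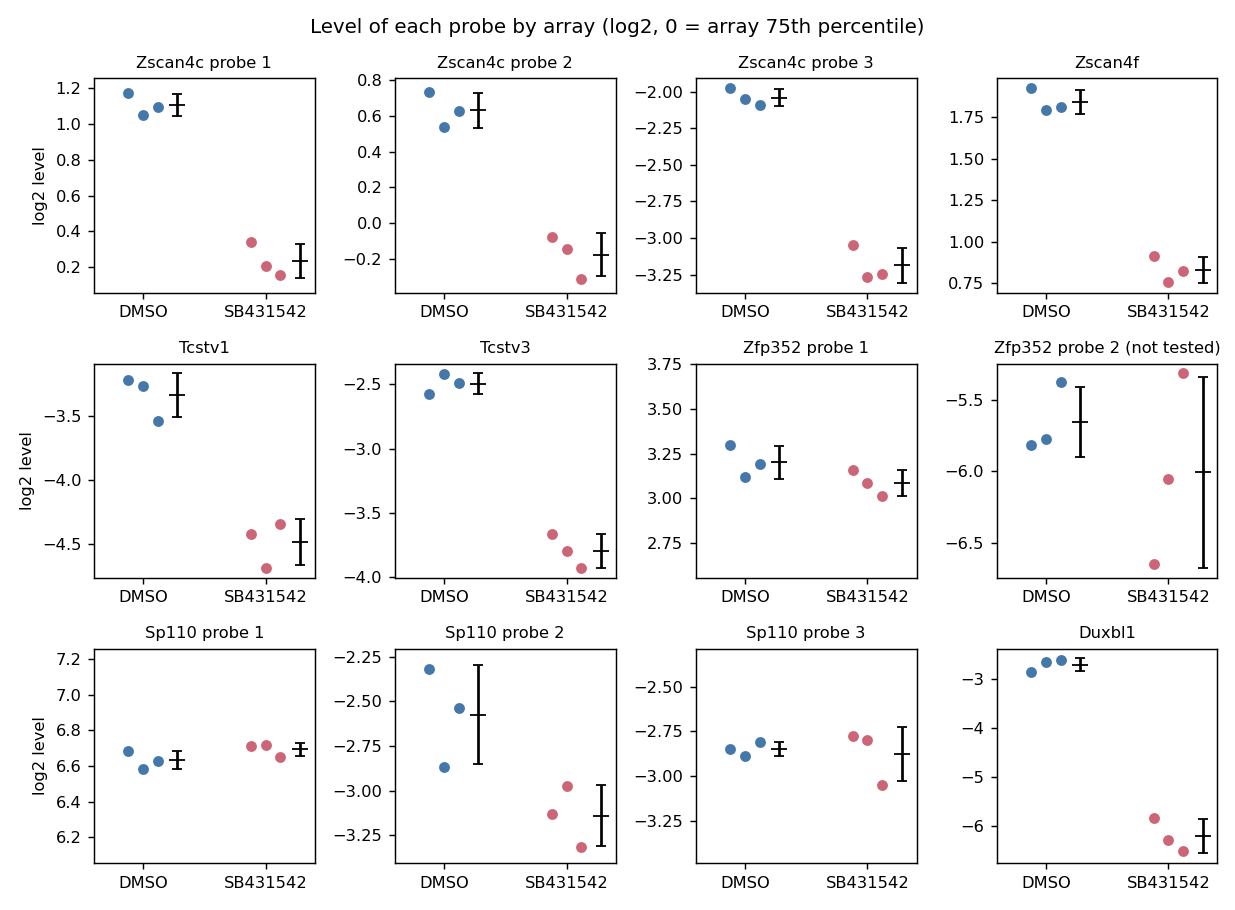
Level of each of the 12 probes on each array (y axis, log2, 0 is the array's 75th percentile; the y ranges differ between panels), with DMSO in blue and SB431542 in red, and the mean ± SD of 3 arrays in black. The groups stand apart for Zscan4c, Zscan4f, Tcstv1, Tcstv3, Duxbl1 and Sp110 probe 2, and overlap for the other probes of Sp110 and for Zfp352.

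The 3 Zscan4c probes fell by similar amounts. The brightest probe (A_55_P2019533) measured 1.17, 1.05 and 1.10 on the DMSO arrays and 0.34, 0.20 and 0.16 on the SB431542 arrays. Its log2 change was -0.87 ± 0.07 (SE, 3 arrays per group, limma adjusted p = 0.00206). Every SB431542 array lay below every DMSO array, and the gap was several times the spread within either group. Probe 2 (A_55_P2007017) measured 0.73, 0.54 and 0.63 with DMSO and -0.08, -0.14 and -0.31 with SB431542, a change of -0.81 ± 0.09. Probe 3 (A_52_P363843), the dimmest, measured -1.98, -2.05 and -2.09 with DMSO and -3.05, -3.27 and -3.24 with SB431542, a change of -1.14 ± 0.08. The groups did not overlap on either of these probes. The change of probe 3 was -0.62 under normexp background correction with an offset of 50.

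Zscan4f, the copy whose upstream window differs from that of Zscan4c at a single shared base, showed the same pattern. Its probe (A_55_P2007986) measured 1.93, 1.79 and 1.81 with DMSO and 0.91, 0.75 and 0.82 with SB431542. The change was -1.02 ± 0.07 (limma adjusted p = 0.00122), 2.02-fold lower, with no overlap. Zscan4a, annotated as a transcribed pseudogene of the same cluster, fell on both of its probes, by 0.87 and 0.84 on the log2 scale. Differences in size between copies were not tested, since the probes may share signal.

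Tcstv1 and Tcstv3, genes of a cluster named for variable transcripts of the 2-cell stage, also fell. The Tcstv3 probe (A_51_P143200) measured -2.58, -2.42 and -2.49 with DMSO and -3.66, -3.80 and -3.93 with SB431542. Its change was -1.30 ± 0.09 (limma adjusted p = 0.00114), 2.46-fold lower. The Tcstv1 probe (A_51_P481768) measured -3.21, -3.26 and -3.53 with DMSO and -4.42, -4.69 and -4.34 with SB431542. Its change was -1.15 ± 0.13 (limma adjusted p = 0.00522). Both probes were dim, well above background on all 6 arrays, and showed no overlap between the groups. Under normexp background correction their changes were -0.59 and -0.34.

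Duxbl1, of the double homeobox family that also holds Dux, showed the largest change of the 11 probes. Its probe (A_55_P1973514) measured -2.87, -2.67 and -2.62 with DMSO and was not well above background on any SB431542 array. Set against the faintest detected signal of each SB431542 array, or the probe's own where that was brighter, it was 8.11-fold lower. This is an estimate and not a strict bound, since brighter signals could go undetected. Those faintest signals lay from -5.90 to -5.69, while the second Zfp352 probe, at -5.31 on SB431542 replicate 3, was not well above background. The fitted log2 change, which uses the undetected values, was -3.49 (limma adjusted p = 0.000585), and -0.99 under normexp background correction. Duxbl2, a near-identical copy measured on all arrays, gave a value that does not rest on undetected signals. It measured 0.75, 0.56 and 0.58 with DMSO and -2.34, -2.40 and -2.35 with SB431542. This is a change of -2.99 ± 0.07 (limma adjusted p = 4.81e-05), 7.95-fold lower, with SDs of 0.10 and 0.03. Under normexp background correction the change was -2.36.

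**Figure D2:**
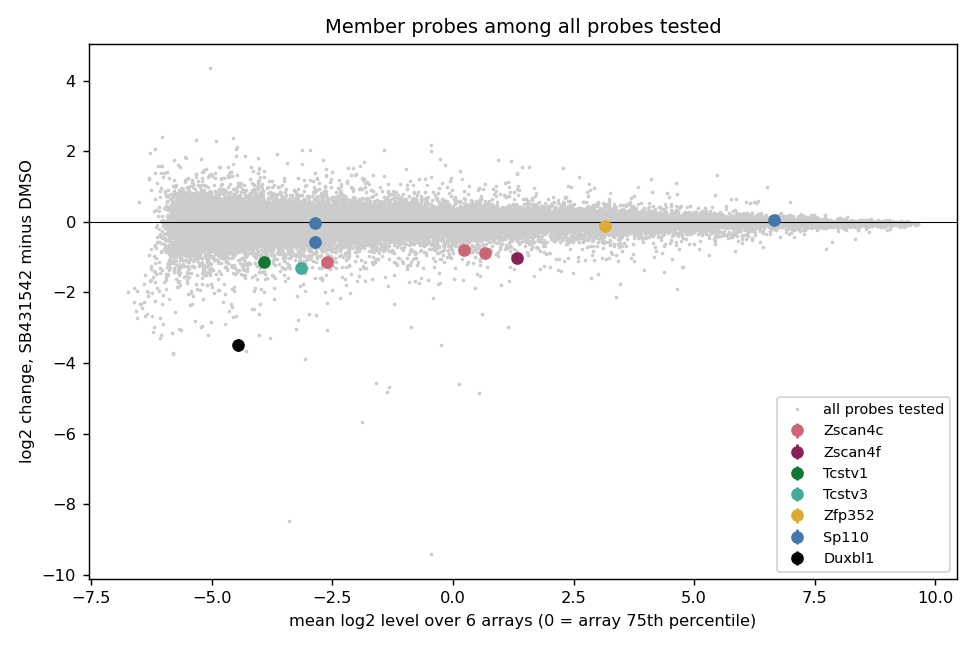
Log2 change of SB431542 minus DMSO (y axis) against the mean log2 level over 6 arrays (x axis) for 36184 probes tested (grey) and the 11 probes of the genes described (coloured, bars are SE and mostly smaller than the points). The Zscan4 and Tcstv probes lie between -0.81 and -1.30, Duxbl1 at -3.49, and Zfp352 and the brightest Sp110 probe near 0.

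Zfp352, a zinc finger gene transcribed in the early embryo, did not pass the test on the 1 probe that could be tested. Its bright probe (A_55_P2060343) measured 3.30, 3.12 and 3.19 with DMSO and 3.16, 3.09 and 3.01 with SB431542. The groups overlapped, and the change was -0.12 ± 0.07 (limma adjusted p = 0.374). Its other probe (A_55_P2182056) averaged -5.65 with DMSO and -6.01 with SB431542. It was well above background on 1 of 6 arrays and was not tested. The result for Zfp352 therefore rests on 1 probe. Whether the change of Zfp352 differs from that of Zscan4c was not tested.

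Sp110, a nuclear body gene that responds to interferon, had 3 probes that disagreed. The brightest (A_55_P2066792) measured 6.69, 6.59 and 6.63 with DMSO and 6.71, 6.72 and 6.65 with SB431542, a change of 0.06 ± 0.06 with overlapping groups. Probe 2 (A_55_P2037235) measured -2.32, -2.87 and -2.54 with DMSO and -3.13, -2.98 and -3.31 with SB431542. Its groups did not overlap, but the change of -0.57 ± 0.16 missed the threshold (limma adjusted p = 0.0854), with an SD of 0.28 among the DMSO arrays. It passed with an intensity trend and robust variance (adjusted p = 0.0315), while the other alternatives gave 0.0600 to 0.215. Probe 3 (A_55_P2152566) changed by -0.03 ± 0.09. Of the related nuclear body genes, the brightest Sp140 probe fell by 0.38 (adjusted p = 0.0350) and Sp100 changed by 0.11 ± 0.13. A second Sp140 probe was well above background on no SB431542 array and entered the test through its DMSO arrays alone. Against the faintest detected signals, as for Duxbl1, it was 1.58-fold lower, which is no strict bound. Another Sp140 probe changed by -0.20 ± 0.24 and missed the threshold. The Sp140 call was lost without DMSO replicates 1, 2 and 3 (adjusted p = 0.120, 0.0969 and 0.127) and without SB431542 replicates 1, 2 and 3 (0.0553, 0.0612 and 0.0564), with no filter on dim probes (0.0823) and with the replicate block (0.0704). Its change was -0.23 under normexp background correction.

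SB431542 replicate 3 was the only array on slide 2. On slide 1 alone, which is also the fit with slide as a block, the 7 probes all stayed past the threshold, and the changes were -0.83 for the brightest Zscan4c probe, -1.01 for Zscan4f, -1.22 for Tcstv1 and -3.34 for Duxbl1.

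Further genes of the 2-cell stage fell with them. Of 55 such genes listed, 28 had a probe and 23 were tested. By the brightest probe of each, 9 fell and 0 rose, or 39.1%, against 8.12% of 15648 genes with a symbol that fell and 5.87% that rose. The median log2 change of the 23 was -0.28, against 0.01 over all genes with a symbol. The list was drawn up with results for its best-known members already in view. Duxbl2, Zscan4a, Gm20767 and AF067061 lie in the clusters of the Duxbl, Zscan4 and Tcstv genes described above. Probes for such copies may share signal, so the 9 are not a count of independent genes. Besides Duxbl2 and Zscan4a, the smallest adjusted p-values were those of AF067061 (-1.0 ± 0.06, adjusted p = 0.00100), Gm20767 (-1.06 ± 0.08) and Gm4340 (-0.68 ± 0.06). AF067061 measured 0.93, 1.00 and 0.92 with DMSO and -0.02, 0.01 and -0.14 with SB431542, and its second probe fell by 1.22 on the log2 scale. Gm20767 ran from 0.23 to 0.32 with DMSO and from -0.90 to -0.64 with SB431542, and Gm4340 from 0.78 to 0.88 and from 0.10 to 0.19. None of these 3 genes had overlapping groups.

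**Figure D3:**
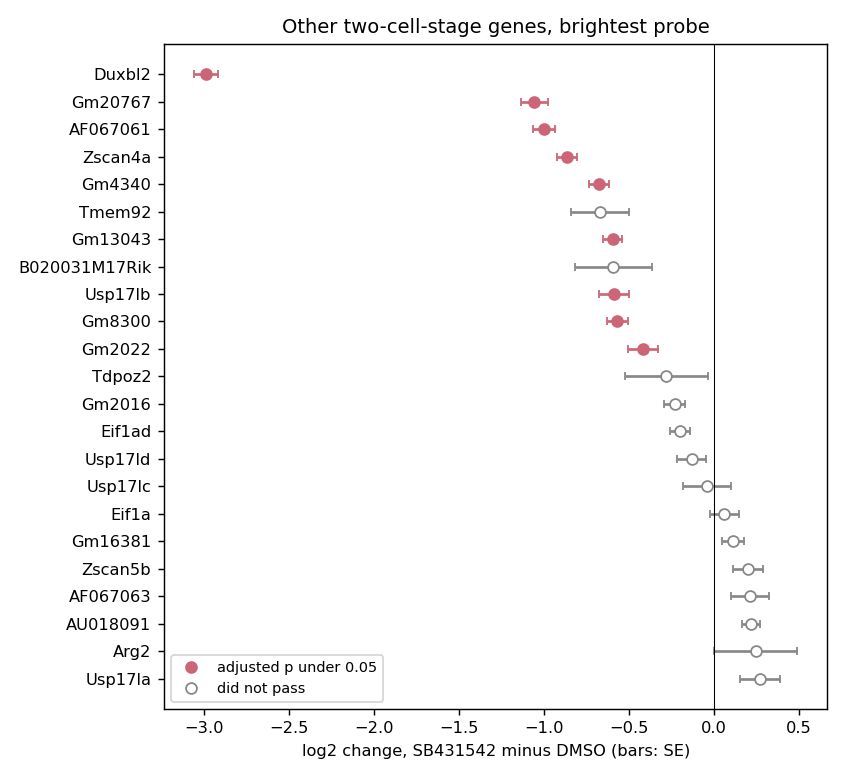
Log2 change (x axis, bars are SE from the fit, 3 arrays per group) of the brightest probe of 23 further genes of the 2-cell stage, with those past an adjusted p of 0.05 filled. The 9 filled genes all lie below 0, Duxbl2 farthest at -2.99.

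Probes of a gene disagreed within this list. For Usp17la, a deubiquitinase gene of a multicopy family, the brightest probe changed by 0.27 ± 0.12 and missed the threshold, while its other tested probe fell by 0.59 on the log2 scale. For Gm2016 the brightest probe changed by -0.23 ± 0.06 and missed it (adjusted p = 0.0759), while both others fell, by 0.57 and 0.58. These 2 genes were chosen after their values were seen. The 14 genes that did not pass ran from Tmem92 (-0.67 ± 0.17) to Usp17la.

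The neighbours of these genes were read in the RefSeq gene order. The stretches were bounded by genes already seen to fall, except at Zscan4-ps3, which was not tested. Counts inside them are therefore a description. Of the 9 further genes that fell, 5 (Usp17lb, Gm4340, Gm8300, Gm2022 and Gm13043) lie in none of the stretches. Between Zscan4a and Zscan4-ps3 on chromosome 7, 3 of 41 annotated genes were tested (Zscan4a, Zscan4c and Zscan4f) and all 3 fell, against 8.12% of all genes with a symbol, while of the 5 nearest tested genes on either side 0 of 10 passed. Between Tcstv1 and Tcstv3 on chromosome 13, 6 of 28 annotated genes were tested and 4 fell, namely both Tcstv genes, Gm20767 and AF067061. B020031M17Rik (-0.59 ± 0.23) and BC147527 (-0.46 ± 0.12) lie between them and missed the threshold, and 0 of the 5 tested genes before the cluster passed. AF067063, the nearest of these, changed by 0.21 ± 0.11.

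Beside Duxbl1 and Duxbl2 on chromosome 14, neighbours fell too. Of 10 flanking genes 3 fell and 0 rose, against 8.12% and 5.87% of all genes with a symbol, and these were the 3 nearest on the side of Duxbl1. Cphx1, a homeobox gene expressed in the early embryo, changed by -1.28 ± 0.08 (limma adjusted p = 0.000840), Plac9a by -1.02 ± 0.07 and Tmem254a by -0.57 ± 0.06. Anxa11 and Zcchc24, farther out on that side, changed by -0.16 ± 0.06 and -0.24 ± 0.07 and missed the threshold. On the other side the 5 tested genes missed it as well. The nearest, 4933413J09Rik, had a change of opposite sign (0.85 ± 0.37, limma adjusted p = 0.215), and the others ran from -0.19 ± 0.07 (Arf4) to 0.07 ± 0.06 (Pde12). Cphx1, Plac9a and Tmem254a belong to families with further copies in the same region, so their identity is uncertain. This look at neighbours was chosen after the data were seen.

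**Figure D4:**
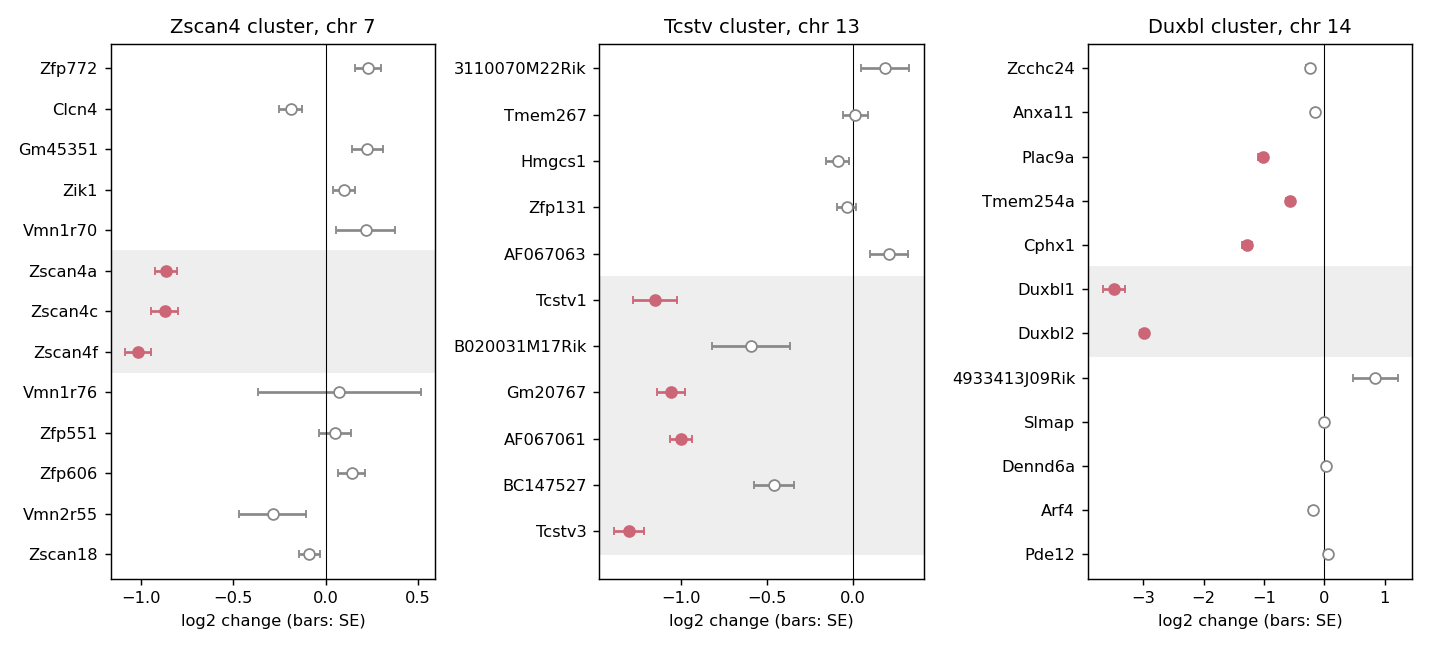
Log2 change (x axis, bars are SE) of the tested genes within each cluster (grey band) and of up to 5 tested genes on each side, in RefSeq order from top to bottom, with those past an adjusted p of 0.05 filled. Filled genes make up 3 of 3, 4 of 6 and 2 of 2 of the bands, and outside them are Plac9a, Tmem254a and Cphx1 beside Duxbl1.

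Most genes that act on the 2-cell-like state did not pass the test, which also holds for all genes with a symbol (14.0% passed). Of 12 genes listed as activators and tested, 1 rose, 2 fell and 9 did not pass. The 9 were Dppa2, Dppa4, Gata2, Nelfa, Nfya, Yap1, Smarca5, Ctcf and Ep300. Whether each acts as an activator in these cells was not examined. The share that fell was 16.7%, against 8.12% of all genes with a symbol, of which 5.87% rose. With 12 genes these counts are too small to be told apart from the background. Dppa3, a maternal factor gene heterogeneous in these cells, measured 0.90, 0.91 and 1.05 with DMSO and 1.66, 1.79 and 1.72 with SB431542, a change of 0.77 ± 0.07 (limma adjusted p = 0.00287). Tbx3, a T-box factor gene, measured 3.89, 3.85 and 3.78 with DMSO and 3.16, 3.14 and 3.18 with SB431542, a change of -0.68 ± 0.06 (adjusted p = 0.00197). The H3K9 demethylase gene Kdm4b fell by 0.33 (adjusted p = 0.0201). The Kdm4b call was lost without DMSO replicates 1, 2 and 3 (adjusted p = 0.0821, 0.0853 and 0.0918) and without SB431542 replicate 1 (0.0612), with no filter on dim probes (0.0552) and with the replicate block (0.0887). The median of the 12 listed genes was 0.12.

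Of 27 repressors tested, among them Trim28, Setdb1, Kdm1a and the subunits of the chromatin assembly factor Chaf1a and Chaf1b, 1 rose and 1 fell, with a median of 0.04. In each direction this is 3.7%, against 8.12% of all genes with a symbol that fell and 5.87% that rose. With 27 genes these counts are too small to be told apart from the background. Rest, which silences neuronal genes, measured 5.26, 5.17 and 5.16 with DMSO and 4.68, 4.60 and 4.47 with SB431542, a change of -0.61 ± 0.07 (limma adjusted p = 0.00661), and its second probe fell by 0.52. The chromatin gene Smchd1 rose by 0.31 ± 0.06 (adjusted p = 0.0249), and its second probe changed by 0.39 ± 0.11 and missed the threshold (adjusted p = 0.0761). For Atrx, a chromatin remodeller gene, the brightest probe missed it while a dimmer one rose by 0.27 (adjusted p = 0.0312). The Smchd1 call was lost without DMSO replicates 1, 2 and 3 (adjusted p = 0.0641, 0.109 and 0.106) and without SB431542 replicates 1 and 2 (0.0699 and 0.0613), with no filter on dim probes (0.0650) and with the replicate block (0.0828), which leaves 1 changed repressor, Rest.

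Zscan4 is linked to telomere upkeep and to meiosis genes, and of 12 genes of these kinds 10 were tested, 0 rose and 1 fell (10.0%, near the 8.12% of all genes that fell). Smc1b, a cohesin subunit gene of meiosis, measured 2.12, 2.23 and 2.24 with DMSO and 1.60, 1.59 and 1.51 with SB431542, a change of -0.63 ± 0.06 (limma adjusted p = 0.00379). The list's median was 0.09.

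The genes most like Zscan4c and Tcstv3 over the 6 arrays were then sought among 14825 genes with a symbol that were well above background on every array and not in the lists of the 2-cell stage. Likeness was the root mean square difference of log2 values centred on each probe's own mean. For Zscan4c these were Rnd3 (difference 0.036), Zbed5 (0.038), Tmcc3 (0.0435), the matricellular gene Ccn2 (0.0436) and the apolipoprotein gene Apod (0.047), with log2 changes of -0.84 to -0.92. For comparison, the difference from Zscan4c was 0.031 for Zscan4a and 0.080 for Zscan4f. For Tcstv3 the nearest were the transporter gene Abcb1b (0.055), Zfhx2 (0.062), the formin gene Fhod3 (0.0655), Trim67 (0.0657) and Dpysl4 (0.071), with changes of -1.27 to -1.36. With 6 arrays in a pair of groups, likeness mostly reflects the size of the difference between the groups.

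**Figure D5:**
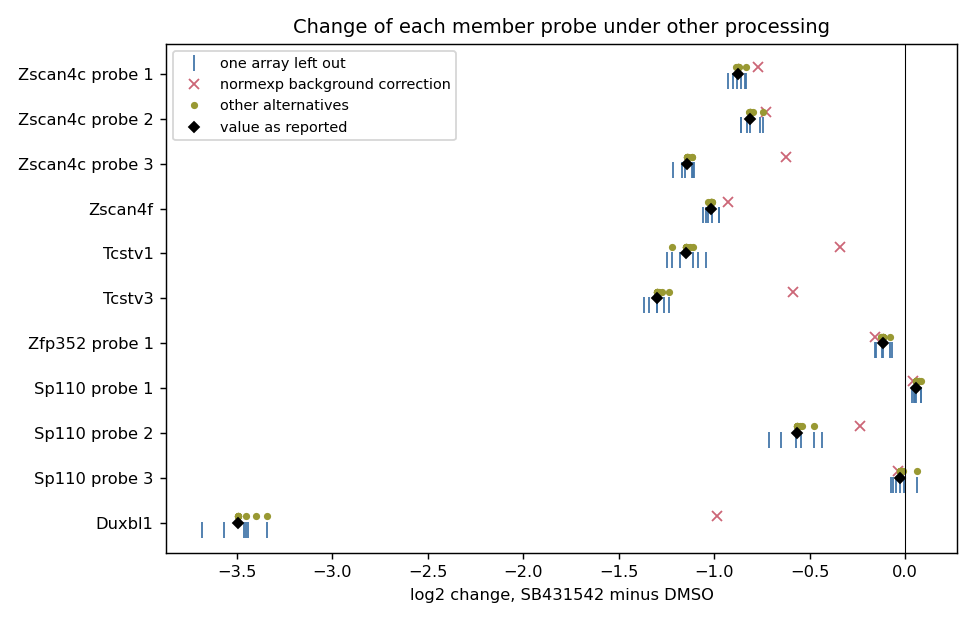
Log2 change (x axis) of each of the 11 tested probes as reported (black diamond), with 1 array left out (blue ticks), under normexp background correction (red crosses) and under the other alternatives (olive points). The Zscan4, Tcstv and Duxbl1 values stay below 0 throughout, and the normexp values of the dim probes lie nearer to 0.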

How the data were processed

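The scanner files hold spot intensity on a linear scale, background-subtracted and detrended within each array by Agilent Feature Extraction (version 10.7 in the submitters' processing notes), per the file headers. Flags are a score of 0 or 1 that Feature Extraction wrote, per the file headers. The authors also deposited a table of log2 values of the same arrays, with a normalization not given in the sources used here (each column correlated with its array's log2 signal at 0.99988 or above). It served as an alternative.

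Of 55681 probes, 81 had only outlier spots on some array and were left out. No spot was saturated (0). Spots were averaged, log2 values were set relative to each array's 75th percentile (453 to 565 in signal), and 63.2% to 65.6% of probes were well above background. For arrays, their number limits the precision. Probes were named through RefSeq accessions (GRCm38.p6), which gave 27213 a symbol. Every probe was tested on its own with limma 3.58.1 in R 4.3.3 (lmFit, eBayes, Benjamini-Hochberg over 36184 probes, threshold 0.05), and lists were read by each gene's brightest probe. Sequences were aligned with Biopython 1.88 in Python 3.11.15. The steps were tested on simulated data. Genes named were all probes of the 8 genes, up to 5 called genes of each list by adjusted p, the Nodal controls and the 5 nearest genes by likeness. Members and lists were chosen with earlier results of these data known. The array grid uses mm9, so coordinates are given only for RefSeq sequences. The design foresaw mean spot signals for normexp, and the files hold spot medians, which were used.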

Additional observations from a re-analysis of the deposited data

How the results depend on the processing

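The 7 probes of Zscan4c, Zscan4f, Tcstv1, Tcstv3 and Duxbl1 stayed below 0 and past the threshold under each alternative in which they were tested, which leaves out Duxbl1 where all 6 arrays had to be well above background. Member probes kept direction and call in 168 comparisons with an alternative. The third Sp110 probe changed sign (0.0593) with slide as a block, and ran from -0.0759 to 0.0593 with 1 array left out, its highest value coming without SB431542 replicate 3. The second passed with an intensity trend. Changed probes numbered 3908, and 2257 with dim probes kept, a setting that tests more of them, 1357 at an adjusted p under 0.01, 1626 with the replicate block and 1594 to 3304 with 1 array left out. Changed repressors numbered 2, and 1 with no filter, 1 at 0.01, 1 with the replicate block, 5 with an intensity trend and robust variance, and 1 to 3 with 1 array left out. Same-numbered arrays did not deviate together (correlations of -0.04, 0.0007 and 0.07), and arrays with different numbers gave -0.06 to 0.05. A lack of shared deviation cannot show whether the numbers pair the samples, which remains unknown. All 7 probes passed with the replicate block. Normexp with its offset shrank changes of dim probes. Values near background, as for Duxbl1 with SB431542, are uncertain and give no strict bound.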
